A study of Homo sapiens with 12 samples.

Results

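Integrator is a multi-subunit complex that binds RNA polymerase II, cleaves nascent transcripts such as the small nuclear RNAs (snRNAs) of the spliceosome, and ends transcription early at many protein-coding genes. It acts on paused polymerase that carries the negative elongation factor NELF and the factor DSIF, and its phosphatase arm removes phosphates from the polymerase and its partners. The genes described here are INTS1 to INTS10, 10 of 58051 genes listed in the count table, found by their symbols. All 10 passed the filter on low counts in every comparison. Some subunits form the backbone (INTS1, INTS2, INTS7), some hold the phosphatase PP2A (INTS5, INTS6, INTS8), some form the cleavage module (INTS4 and INTS9, with the endonuclease INTS11), INTS10 belongs to an arm with INTS13 and INTS14, and INTS3 also joins the single-stranded DNA binding SOSS complex.

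The cells were MDA-MB-231, 1 established human triple-negative breast cancer line, in every group. Every group was transfected with siRNA pools at 50 to 100 nM, a non-targeting pool in siControl, a pool against NELFA in siNELFA, a pool against YAP1 in siYAP, and both targeting pools in siNELFA+siYAP, with 3 libraries a group. The sample labels give harvests at 48 h and 72 h for the experiment without saying which library is which, and the study's methods give 72 h. The study's methods describe 3 independent biological replicates. The labels do not say so, and the library names of siNELFA+siYAP share 1 number. For that group the spread between libraries may thus be technical. Over genes summing from 1000 to below 1e+05 counts, the variance between 2 siNELFA+siYAP libraries was 2.97 to 3.27 times that of counting single reads. It was 17.2 to 25.5 times between replicates 2 and 3 of the other groups, and 160 to 196 times with replicate 1. Whether the siNELFA+siYAP libraries came from separate cultures was not tested, and p-values with that group treat them as 3 replicates.

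Depth was 9608145 to 18803104 counts a library, of which the 10 members took 4751 to 11143, or 0.0481 to 0.0611%. The single-member counts ran from 86 for INTS5 to 2229 for INTS3. Levels are given as CPM, counts scaled to library size with trimmed-mean factors, unless stated otherwise. NELFA, the subunit of NELF that was targeted, measured 25.3, 27.5 and 27.9 CPM in siControl and 9.96, 9.05 and 7.11 CPM in siNELFA, a log2 fold change of -1.63 (SE 0.21). All siNELFA libraries lay below all siControl libraries, but the adjusted p was 0.381 by edgeR. Blocking on the replicate number brought it to 0.000385. YAP1 measured 302, 269 and 247 CPM in siControl and 46.2, 45.5 and 37.7 CPM in siYAP (log2 fold change -2.67, SE 0.19, adjusted p = 0.0162 by edgeR). In siNELFA+siYAP NELFA and YAP1 changed by -1.94 and -2.72 (adjusted p = 0.0199 and 0.00118 by edgeR). With these 3 libraries summed as 1 sample the changes were -1.94 and -2.71 and neither passed (adjusted p = 0.9998 for both by edgeR). Markers of the line were high, with VIM at 1182 to 1870 CPM over all libraries. The receptor genes ESR1 and PGR stayed at or below 0.433 CPM. The receptor gene ERBB2, also chosen as a gene low in this line, measured 45.7 to 80.5 CPM.

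The replicate 1 libraries of siControl, siNELFA and siYAP stood apart from the others. Some markers of epithelial cells and fibroblasts were high in them. The epithelial cadherin CDH1 measured 16.3 to 47.0 CPM in these 3 libraries and 0 to 0.936 CPM in the other 6 of those groups. The collagen gene COL1A2 measured 41.0 to 53.0 CPM against 1.40 to 3.71 CPM, and PDGFRB 25.5 to 35.0 CPM against 10.8 to 17.3 CPM. The epithelial gene EPCAM measured 15.4 to 18.3 CPM against 4.66 to 9.56 CPM. The fibroblast gene LUM, at 1.08 to 1.96 CPM against 0.550 to 1.59 CPM, did not pass the test (adjusted p = 0.325 by edgeR). In siNELFA+siYAP, CDH1 was at 0.215 to 0.828 CPM and COL1A2 at 0.716 to 1.32 CPM in all 3 libraries. Summed over the 7 markers of other cells that were chosen, the level was 67.6 to 89.5 CPM in these replicate 1 libraries, 14.1 to 21.5 CPM in replicates 2 and 3, and 13.8 to 21.0 CPM in siNELFA+siYAP. The leukocyte gene CD3E and the neuronal genes NEFL and NEFM were at 0 in all 12 libraries, which allows up to 3 counts a library. What part these markers have in the member results was not tested. In bulk RNA, fewer cells of a type and less RNA per cell cannot be told apart. Results are therefore also given without the replicate 1 libraries.

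The upstream stretches below, from RefSeq on GRCh38.p14, are shown because they belong to the 2 subunits whose levels moved most alike and have an entry in that table (INTS6 and INTS7, with a Pearson r of 0.895 across the 12 libraries), and to 2 subunits that hold, within this stretch, the searched motif found in most members (INTS1 and INTS3). Each line is the last 120 bases before the start of the gene in RefSeq, which for INTS6 is not the outermost start in GENCODE, 5′ to 3′ on the strand of the gene, with letters of a match in capitals.

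INTS1 (chr7:1504390-1504509, minus strand): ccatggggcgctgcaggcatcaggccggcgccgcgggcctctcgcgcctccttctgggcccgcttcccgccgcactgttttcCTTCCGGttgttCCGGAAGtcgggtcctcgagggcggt

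INTS3 (chr1:153727930-153728049, plus strand): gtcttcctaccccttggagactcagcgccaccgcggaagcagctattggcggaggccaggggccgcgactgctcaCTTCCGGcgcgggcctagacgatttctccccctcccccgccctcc

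INTS6 (chr13:51453037-51453156, minus strand): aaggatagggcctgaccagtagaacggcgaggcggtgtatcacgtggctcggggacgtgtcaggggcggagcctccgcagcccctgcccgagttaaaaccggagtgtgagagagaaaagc

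INTS7 (chr1:212035558-212035677, minus strand): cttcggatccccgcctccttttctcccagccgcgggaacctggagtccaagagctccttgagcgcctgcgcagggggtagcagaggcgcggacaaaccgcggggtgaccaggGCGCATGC

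The table held 6 of the 10 members, INTS1, INTS2, INTS3, INTS4, INTS6 and INTS7, and had no entry for INTS5, INTS8, INTS9 and INTS10. The 250 bases before each start were searched on both strands for the motifs CCGGAAG (bound by ETS factors), GGAATG (TEAD factors, the partners of YAP), TGANTCA (AP-1) and GCATGCGC (NRF1). The ETS letters were in 3 of the 6 members against 8.52% of all 35116 promoters. They lay 2 times in INTS1, the nearer 26 bases before the start, once in INTS3 at 45 bases, and once in INTS4 at 179 bases, outside the stretch of 120 bases. The NRF1 letters were in INTS7 alone, 8 bases before its start, against 2.63% of all promoters. The TEAD letters (11.9% of all promoters) and the AP-1 letters (6.57%) were in none of the 6. Such matches describe these letters in this window only.

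In siControl the members lay between the 62.8th and the 87.2nd percentile of genes with a TPM above 0. Ranked by the authors' TPM, which is scaled for gene length, INTS8 was highest at 38.4 ± 8.82 TPM (SD, n = 3), followed by INTS3 at 31.2 ± 4.205 TPM and INTS10 at 31.0 ± 4.21 TPM. INTS6 (25.3 ± 4.38 TPM), INTS4 (21.7 ± 2.41 TPM), INTS7 (18.9 ± 6.93 TPM) and INTS1 (17.7 ± 4.27 TPM) followed. INTS2 at 12.5 ± 3.22 TPM, INTS9 at 8.18 ± 2.04 TPM and INTS5 at 7.38 ± 3.25 TPM closed the order. Each neighbouring pair overlapped in its range over the 3 libraries, so no step in the order lay beyond its spread. The order of the mean over all 12 libraries was the same. Divided by the exonic length in GENCODE, siControl counts gave 10.8 CPM per kb for INTS3, 9.72 for INTS7 and 7.39 for INTS8, so the rank of INTS8 depends on how length is counted.

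Knockdown of NELFA was compared with siControl to ask whether the subunits of the complex that acts with NELF change in level. No member was past an adjusted p of 0.05 or a nominal p of 0.05 by edgeR, where 0.00564% and 4.46% of all tested genes were. Of the members 6 lay above siControl and 4 below it. Their log2 fold changes had a median of 0.020 and ran from -0.17 (INTS10) to 0.29 (INTS5), against a median of 8.02e-05 for all genes. On the log2(TPM + 1) scale the median of all genes itself moved by -0.19 and that of the members by -0.19, with 9 of 10 lower, so the split in direction depends on the scaling. None of the 10 had siNELFA and siControl libraries that did not overlap, which holds for 12.2% of tested genes. With the replicate number as a block the counts of members stayed at 0, while the background rose to 5.21% of genes by adjusted p and 20.2% by nominal p. The member nearest to a call in that fit was INTS5 (log2 fold change 0.34, adjusted p = 0.268 by edgeR). Without the replicate 1 libraries, 0 of 10 members were past either threshold, with 14.3% of genes past a nominal p and 0.0996% past an adjusted p.

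Knockdown of YAP1 gave 0 of 10 members past either threshold by edgeR, where 0.00578% of genes passed by adjusted p and 1.3% by nominal p. Of the members 5 lay above siControl and 5 below it. Their log2 fold changes had a median of -0.031 and ran from -0.22 (INTS10) to 0.35 (INTS5), against a median of -0.0017 for all genes. On the log2(TPM + 1) scale 8 of 10 were lower, with a median of -0.16 against -0.073 for all genes. INTS4 and INTS10 were lower in every siYAP library than in any siControl library, 2 of 10 members against 7.75% of genes. Under the replicate block 0 of 10 passed (0.0173% of genes by adjusted p, 9.11% by nominal p). Without the replicate 1 libraries 0 of 10 passed (4.37% of genes by nominal p and 0.00559% by adjusted p).

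The double knockdown gave 0 of 10 members past either threshold by edgeR, where 0.428% of genes passed by adjusted p and 18.5% by nominal p. Here 7 lay above siControl and 3 below it. Their log2 fold changes had a median of 0.078 and ran from -0.26 (INTS10) to 0.56 (INTS5), against a median of -0.026 for all genes. On the log2(TPM + 1) scale all genes moved by a median of -0.13 and 5 members were higher. The libraries of both groups did not overlap for 3 of 10 members, INTS3 and INTS9 higher and INTS10 lower, against 29.8% of genes. The library names of the double knockdown carry 1 shared number. With these libraries summed as 1 sample, the members' log2 fold changes had a median of 0.096 and ran from -0.23 to 0.60. Without the replicate 1 libraries 1 member, INTS5, was past a nominal p (log2 fold change 0.37, adjusted p = 0.0773 by edgeR). None was past an adjusted p, where 31.1% and 17.9% of genes passed the nominal and the adjusted threshold. That fit also leaves out siNELFA+siYAP replicate 1, which held the lowest INTS5 level of its group (23.3 against 32.4 and 28.1 CPM). Without siControl replicate 1 alone, INTS2 was past a nominal p (0.22, adjusted p = 0.128 by edgeR), and its direction turned from -0.011. This call was picked from the fits with each library left out. The share of all genes past a nominal p in that fit is not given here. The call is therefore not read as a result about the members. With the replicate number as a block, INTS5 was past a nominal p (0.66, adjusted p = 0.322 by edgeR), where 2548 of 17533 genes were. The replicate numbers do not pair the double knockdown.

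The double knockdown was also compared directly with each single one, in fits without the siControl libraries. Against siYAP, 0 of 10 members passed (0.035% of genes by adjusted p, 15.5% by nominal p), with a median log2 fold change of 0.12 against -0.031 for all genes. INTS2 and INTS4 were higher in every double-knockdown library than in any siYAP library, 2 of 10 members against 26.5% of genes, and for INTS2 the nearest libraries were 49.51 and 49.96 CPM. Without siYAP replicate 1, INTS7 was past a nominal p (-0.28, adjusted p = 0.0515 by edgeR), and without siYAP replicate 3 INTS9 was (0.65, adjusted p = 0.223 by edgeR). Against siNELFA, 0 of 10 passed (0.00573% of genes by adjusted p, 6.62% by nominal p), with a median of 0.060 against -0.0099 for all genes. Leaving out siNELFA replicate 3 brought INTS6 past a nominal p (0.49, adjusted p = 0.300 by edgeR). The calls of INTS7, INTS9 and INTS6 were picked from the fits with each library left out. The share of all genes in those fits is not given here, so they are not read as results about the members. The interaction, which tests whether siNELFA acts differently with and without siYAP, was past a threshold for 0 of 10 members (0% of genes by adjusted p, 1.76% by nominal p). The comparisons with siControl share its 3 libraries and are given side by side only.

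**Figure D1:**
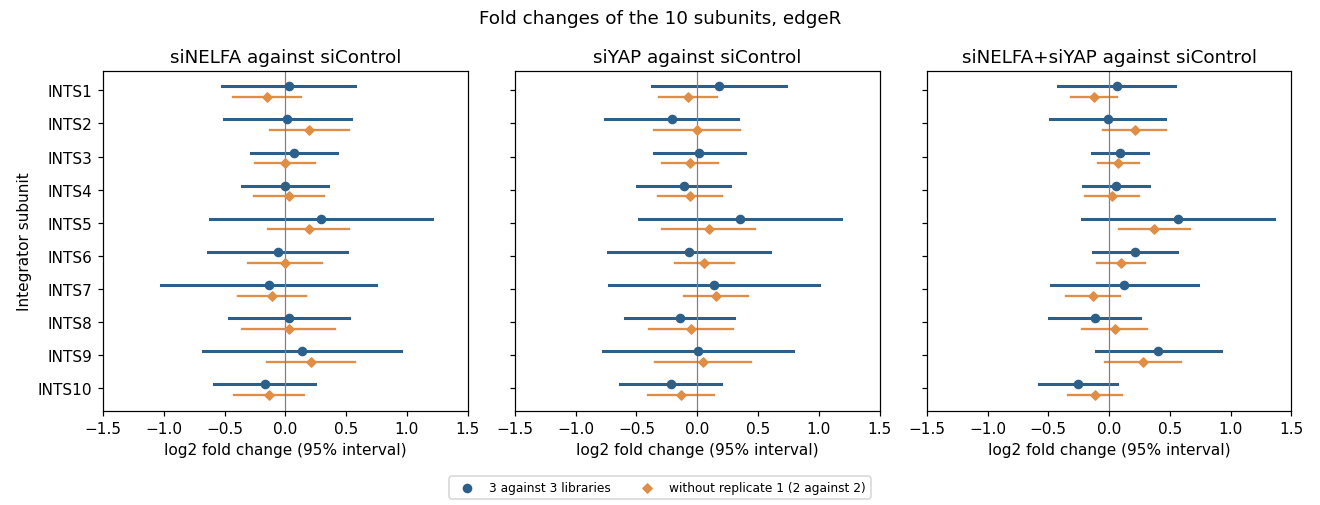
Log2 fold change against siControl (horizontal axis, 95% interval as bars) of the 10 subunits (vertical axis) by edgeR, in 3 against 3 libraries and without replicate 1. Every interval of the fits with 3 libraries a group spans 0, and the widest belong to INTS5 and INTS7, at -0.62 to 1.203 and -1.02 to 0.75 in siNELFA.

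Among the backbone subunits, INTS1, the largest subunit and a scaffold, measured 49.9, 83.1 and 87.2 CPM in siControl, 71.6, 82.5 and 69.9 in siNELFA, and 89.2, 77.8 and 83.2 in siYAP. With both siRNA pools the values were 75.4, 80.3 and 76.3 CPM. The siControl replicate 1 value was the lowest of the 12 and the groups overlapped. The log2 fold change was 0.026 (SE 0.23) in siNELFA, 0.18 (SE 0.24) in siYAP and 0.063 (SE 0.20) in the double knockdown, and it turned to -0.15, -0.079 and -0.12 without the replicate 1 libraries.

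INTS2, another backbone subunit, measured 67.9, 49.5 and 40.4 CPM in siControl, 56.8, 53.1 and 49.4 in siNELFA, and 47.0, 49.5 and 40.4 in siYAP. In siNELFA+siYAP it measured 53.7, 54.2 and 50.0 CPM. Its widest spread was within siControl, and every group overlapped it. The log2 fold change was 0.014 (SE 0.22) in siNELFA and -0.21 (SE 0.24) in siYAP.

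INTS7, the remaining backbone subunit, measured 30.8, 59.7 and 64.7 CPM in siControl, 26.6, 54.7 and 59.7 in siNELFA, and 33.2, 65.6 and 72.5 in siYAP. Under both pools together it measured 57.3, 53.4 and 59.96 CPM. Replicate 1 was low in the first 3 groups and not in the double knockdown. The log2 fold change was -0.14 (SE 0.38) in siNELFA, with a 95% interval from -1.02 to 0.75, and 0.12 (SE 0.26) in the double knockdown. Without the replicate 1 libraries the siNELFA interval narrowed to -0.39 to 0.17.

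Of the subunits that hold the phosphatase, INTS5 measured 9.31, 21.6 and 25.05 CPM in siControl, 15.5, 26.4 and 26.6 in siNELFA, and 22.1, 21.9 and 27.8 in siYAP. The siNELFA+siYAP libraries held 23.3, 32.4 and 28.1 CPM. It had the largest fold changes of the members, 0.29 (SE 0.39), 0.35 (SE 0.36) and 0.56 (SE 0.34) in the 3 knockdowns, and the groups overlapped each time. The low siControl replicate 1 value came from 86 counts.

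INTS6, a phosphatase-module subunit with a paralogue in INTS6L, measured 64.4, 83.6 and 90.9 CPM in siControl, 55.1, 77.2 and 96.0 in siNELFA, and 47.1, 88.0 and 93.5 in siYAP. With both siRNA pools the values were 92.6, 88.4 and 98.2 CPM. Replicate 1 was again low in the first 3 groups. The log2 fold change was 0.21 (SE 0.15) in the double knockdown. INTS8, which contacts the phosphatase, measured 66.2, 60.9 and 47.3 CPM in siControl, 68.2, 61.6 and 47.9 in siNELFA, and 54.0, 55.3 and 49.0 in siYAP. In siNELFA+siYAP it measured 50.4, 54.0 and 57.7 CPM. Its siControl and siNELFA values ran nearly level, and its log2 fold change in siNELFA was 0.029 (SE 0.21).

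In the cleavage module, the scaffold subunit INTS4 measured 44.7, 44.97 and 44.3 CPM in siControl, 43.2, 47.1 and 43.5 in siNELFA, and 39.0, 43.3 and 42.1 in siYAP. Under both pools together it measured 49.9, 47.2 and 43.6 CPM. It was the tightest member within siControl, and its log2 fold change in siNELFA was -0.0014 with a 95% interval from -0.35 to 0.35. INTS9, the partner of the endonuclease INTS11, measured 9.64, 16.4 and 15.5 CPM in siControl, 8.94, 17.5 and 19.1 in siNELFA, and 8.94, 14.6 and 18.2 in siYAP. The siNELFA+siYAP libraries held 16.97, 18.8 and 20.01 CPM. In the double knockdown all 3 libraries were above all 3 siControl libraries (log2 fold change 0.41, SE 0.22, adjusted p = 0.370 by edgeR).

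INTS10 measured 59.9, 47.8 and 49.8 CPM in siControl, 51.7, 42.2 and 46.0 in siNELFA, and 46.9, 46.8 and 42.1 in siYAP. With both siRNA pools the values were 43.0, 46.7 and 43.3 CPM. It was the member with the lowest fold change in all 3 knockdowns, -0.17 (SE 0.18), -0.22 (SE 0.18) and -0.26 (SE 0.14), which share siControl and did not pass the test (lowest adjusted p = 0.371 by edgeR). INTS3 measured 112, 115 and 111 CPM in siControl, 130.2, 107 and 117 in siNELFA, and 127, 103 and 114 in siYAP. In siNELFA+siYAP it measured 125, 119 and 119.9 CPM. It had the narrowest interval in the double knockdown, -0.14 to 0.32 on the log2 scale.

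The larger differences among libraries followed the replicate number. A comparison of replicate 1 with replicates 2 and 3 over the 9 libraries of siControl, siNELFA and siYAP, with the siRNA in the model, was chosen after the libraries were seen. Of the 10 members, 4 were lower in replicate 1 and 0 higher by adjusted p, against 46.4% of all tested genes in either direction, 23.1% lower and 23.3% higher. By nominal p, 5 members passed against 52.9% of genes. The members' share therefore lay near the background. INTS7 differed by -1.06 on the log2 scale (SE 0.11, adjusted p = 2.70e-06 by edgeR), INTS9 by -0.88 (SE 0.15, adjusted p = 0.000291), INTS5 by -0.71 (SE 0.18, adjusted p = 0.00565) and INTS6 by -0.67 (SE 0.12, adjusted p = 0.000376). INTS2 was higher by 0.28 (adjusted p = 0.0877 by edgeR). The call of INTS5 did not hold without the siControl libraries (-0.46) or without the siNELFA libraries (-0.68).

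The ratio of replicate 1 to the mean of replicates 2 and 3 shows how far these shifts were shared. For INTS7 it was 0.494 in siControl, 0.465 in siNELFA and 0.481 in siYAP. The double knockdown gave 1.01. For INTS9 it was 0.604, 0.488 and 0.544 in the same order, and 0.876 in siNELFA+siYAP. INTS6 gave 0.739, 0.637 and 0.519, and 0.993. INTS5 was less even, at 0.400, 0.586 and 0.890, and 0.771 in siNELFA+siYAP. INTS1 gave 0.586 in siControl but 0.940 and 1.11 in siNELFA and siYAP, so its low value was that of a single library. Over the 9 libraries, 94.7% of the variation of INTS7, 94.4% of INTS9 and 88.6% of INTS6 went with the replicate number, while the siRNA took 5.18%, 1.29% and 1.94%. The median over members was 55.6% for the replicate number and 13.9% for the siRNA, against 51.0% and 18.6% over all genes. INTS4 had the largest share with the siRNA, 51.0%, over a range of 39.0 to 47.1 CPM. The markers CDH1 and COL1A2, given above, moved with the same libraries, and their part was not tested.

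**Figure D2:**
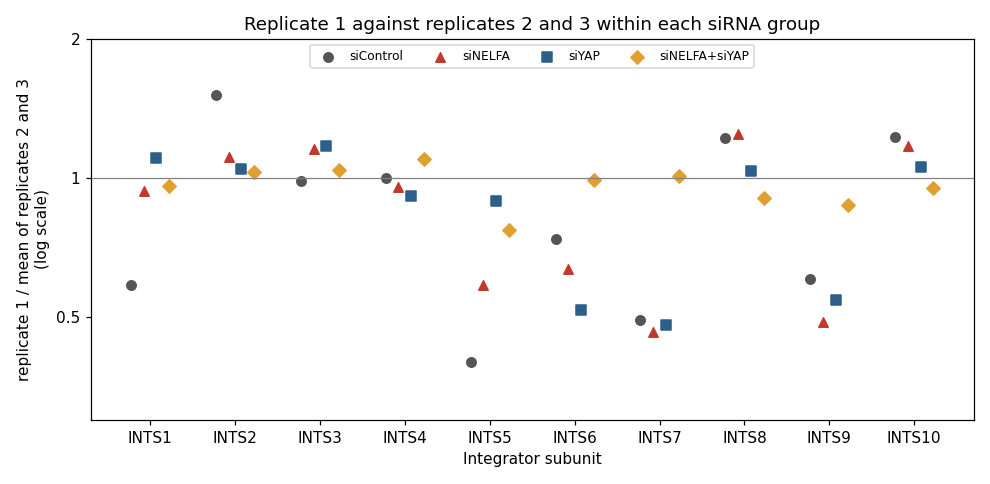
Ratio of the replicate 1 level to the mean of replicates 2 and 3 (log-scale vertical axis) for each subunit, by siRNA group. INTS7 sits at 0.465 to 0.494 in siControl, siNELFA and siYAP and at 1.01 in siNELFA+siYAP.

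**Figure D3:**
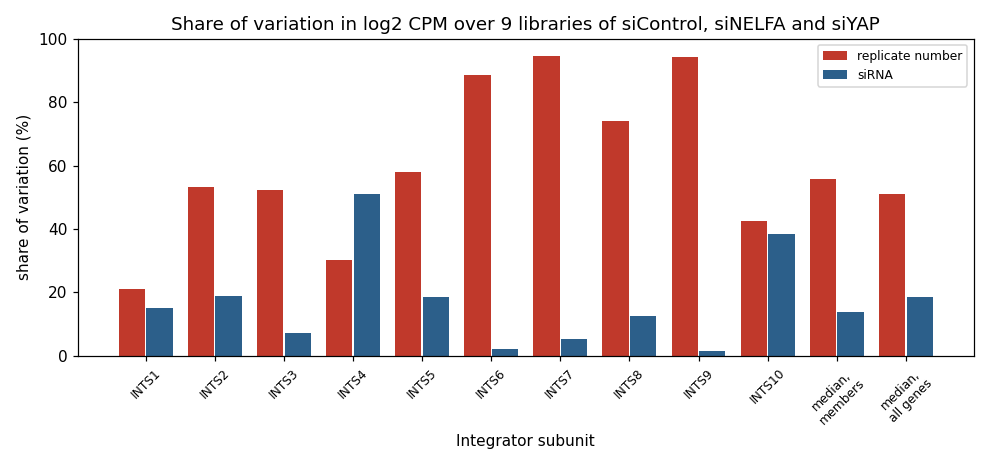
Share (%) of the variation of log2 CPM over the 9 libraries of siControl, siNELFA and siYAP that goes with the replicate number or with the siRNA, for each subunit and as medians. The replicate number exceeds 88% for INTS6, INTS7 and INTS9, and the median of the members, 55.6%, is close to that of all genes, 51.0%.

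Across the 12 libraries, of which the 9 of siControl, siNELFA and siYAP share the replicate 1 contrast, the members did not move as one. Over 45 pairs the correlation of log2 CPM ran from -0.851 (INTS5 and INTS10) to 0.927 (INTS6 and INTS9), with a median of 0.0056. INTS7 correlated by 0.896 with INTS9 and by 0.895 with INTS6. The genes outside the lists that were most like the mean profile of the members were TLCD1 (r = 0.928), GPR63 (0.917), RNU5E-6P (0.916), UGGT1 (0.915) and SSU72 (0.911), as a description over 12 libraries.

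Of 12 other Integrator and associated genes, 0 were past a nominal p in siNELFA, 0 in siYAP and 1 in the double knockdown by edgeR. Of all genes 4.46%, 1.3% and 18.5% were, and 0 of the 12 passed an adjusted p in each. The 1 gene was INTS13, of the same arm as INTS10 (log2 fold change 0.31, SE 0.12, adjusted p = 0.243 by edgeR). It measured 27.6, 29.9 and 27.6 CPM in siControl and 37.3, 34.4 and 34.6 CPM in siNELFA+siYAP. INTS11, the endonuclease, differed by 0.32 (SE 0.18) in siNELFA, INTS12 by 0.31 (SE 0.24), and INTS14, of the INTS10 arm, by -0.015 (SE 0.21), none past a nominal p. Under the replicate block, which pairs siNELFA with siControl, 2 of the 12 passed a nominal p, against 20.2% of genes, and 0 an adjusted p. They were INTS11 (0.30, adjusted p = 0.235 by edgeR) and PPP2R1A, the scaffold subunit of PP2A (0.25, adjusted p = 0.203 by edgeR). Between replicate 1 and the others, 7 of the 12 passed by adjusted p, against 46.4% of all genes. Of the 12, 6 were lower in replicate 1, against 23.1% of genes, and NABP1 alone higher, against 23.3%.

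Of the 6 NELF and DSIF subunits, the targeted NELFA alone was past a nominal p in the fits without a block against siControl. Under the replicate block SUPT4H1, a DSIF subunit, was also past a nominal p in siNELFA (0.39, adjusted p = 0.108 by edgeR), where 20.2% of genes were. Among 18 genes of mRNA 3′ end processing, 0 passed a nominal p in siNELFA or siYAP without a block. Under the replicate block WDR33 and NUDT21 did in siNELFA (-0.25 and -0.28, adjusted p = 0.225 and 0.122 by edgeR), against 20.2% of genes. CSTF1 alone passed a nominal p in the double knockdown, and was lower (-0.33, adjusted p = 0.230 by edgeR), where 18.5% of genes passed. Among 15 genes of snRNA transcription and export, 0 passed a nominal p in siNELFA or siYAP without a block. Under the replicate block 5 did in siNELFA, SNAPC1 and ELL higher and ICE1, ICE2 and NCBP3 lower, against 20.2% of genes. ICE2 did in siYAP, against 9.11% of genes, and 0 passed an adjusted p in either. Without a block, ICE1, ICE2 and NCBP3 were lower at a nominal p in the double knockdown, against 18.5% of genes, with 0 past an adjusted p. ICE2, a subunit of the little elongation complex of snRNA genes, gave -0.52 (SE 0.17, adjusted p = 0.180 by edgeR).

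Of 17 polymerase II snRNA genes, whose transcripts Integrator cleaves, 8 or 9 could be tested against siControl. In siNELFA and siYAP 0 passed a nominal p without a block. In siNELFA 4 of the 8 tested lay above siControl and 4 below it (median 0.086 on the log2 scale). Under the replicate block all 8 were higher in siNELFA, by 0.0098 or more. RNU1-1 (1.31, adjusted p = 0.111 by edgeR) and RNU11 (1.29, adjusted p = 0.0560 by edgeR) were then past a nominal p, against 20.2% of genes. In siYAP 6 of 8 lay below siControl (median -0.71 on the log2 scale). Under the block RNU4-1 was past a nominal p (-0.78, adjusted p = 0.544 by edgeR), against 9.11% of genes. In the double knockdown RNU1-1, RNU11 and RNU4ATAC were higher at a nominal p, against 18.5% of genes. They differed by 1.74, 1.71 and 1.77 on the log2 scale, with adjusted p = 0.134, 0.140 and 0.143 by edgeR. Between replicate 1 and the others, RNU1-1 and RNU11 were lower in replicate 1 (-1.32 and -2.17, adjusted p = 0.0217 and 0.000301 by edgeR). RNU11 measured 0.433, 1.32 and 2.38 CPM in siControl, from 4 to 46 counts, and 4.88, 4.51 and 4.89 CPM in siNELFA+siYAP. By the authors' TPM it was at 0.0475, 0.0586 and 0.0269 in siControl and 0.0524, 0.0663 and 0.0429 in siNELFA+siYAP. RNU4ATAC did not clear the low-count filter over the 9 libraries of siControl, siNELFA and siYAP. Its higher level in the double knockdown may thus be set in part by the filter and is not read as a result. RNU1-1 measured 0.433, 0.771 and 1.24 CPM in siControl and 2.81, 4.08 and 1.77 CPM in siNELFA+siYAP, from 4 to 57 counts. Its TPM was 2250, 1123 and 996 in siControl and 1165, 1305 and 1096 in siNELFA+siYAP. Near-identical copies make its counts uncertain. Against siYAP, 9 of 9 tested snRNA genes were higher in the double knockdown. Of these 5 passed a nominal p, against 15.5% of genes, and 0 an adjusted p. Some of the 9 cleared the low-count filter through the double knockdown, among them RNU4ATAC at 0, 0.428 and 0.370 CPM in siYAP. The shared direction was thus set in part by the filter.

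Positions are those of GENCODE v44 on GRCh38, the build of the files. INTS1 (ENSG00000164880) lies at chr7:1470277-1504389 on the minus strand, with 48 exons in its canonical transcript. INTS2 (ENSG00000108506) lies at chr17:61865367-61928016 on the minus strand, with 25 exons in its canonical transcript. INTS7 (ENSG00000143493) lies at chr1:211940399-212035557 on the minus strand, with 20 exons in its canonical transcript. INTS5 (ENSG00000185085) lies at chr11:62646848-62653302 on the minus strand, with 2 exons in its canonical transcript. INTS6 (ENSG00000102786) lies at chr13:51354077-51454264 on the minus strand, with 18 exons in its canonical transcript. INTS8 (ENSG00000164941) lies at chr8:94813311-94881746 on the plus strand, with 27 exons in its canonical transcript. INTS4 (ENSG00000149262) lies at chr11:77874418-77994715 on the minus strand, with 23 exons in its canonical transcript. INTS9 (ENSG00000104299) lies at chr8:28767661-28890242 on the minus strand, with 17 exons in its canonical transcript. INTS10 (ENSG00000104613) lies at chr8:19817391-19852083 on the plus strand, with 17 exons in its canonical transcript. INTS3 (ENSG00000143624) lies at chr1:153728050-153774808 on the plus strand, with 30 exons in its canonical transcript.

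Some members overlap other genes in this annotation, whose release is not that of the authors. INTS8 shares 1629 of 7866 exonic bases with CCNE2 on the other strand, 20.7%. INTS5 shares 306 of 3285 bases with a read-through gene on its own strand, and INTS3 shares 455 bases with SLC27A3 on its own strand. INTS6 shares 1032 bases with genes on the other strand, among them its antisense gene INTS6-AS1, and INTS1, INTS2, INTS9 and INTS10 share none. INTS6-AS1 was higher at a nominal p in the double knockdown, at 3.14, 3.58 and 3.47 CPM in siControl and 5.71, 5.94 and 5.16 CPM in siNELFA+siYAP (log2 fold change 0.71, SE 0.21, adjusted p = 0.158 by edgeR). The libraries were stranded, but the strand setting of the counting is not given in the sources used here, so reads of such pairs may not be told apart. The pseudogenes INTS4P1, INTS4P2 and INTS6P1 were at 0 to 1.15 CPM.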

How the data were processed

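RNA-seq was made from 12 libraries of MDA-MB-231 cells, in 4 groups of 3 taken from the sample labels. The libraries were depleted of ribosomal RNA and stranded. Reads were aligned by the authors to GRCh38 with STAR, and the deposited counts per gene were made by them with featureCounts on Ensembl release 87. Tool versions are not given in the sources used here. Of the counts from 1 to 10, 81.8 to 84.8% were even, as when both mates of a pair are counted, so a count is not a molecule and the intervals cover the spread between libraries. The authors also deposited TPM values, used here for levels between genes, and FPKM values, which were not used because rescaling them gives the TPM.

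Each comparison was fitted on the counts of its 6 libraries with edgeR 4.0.16 in R 4.3.3 (quasi-likelihood test, TMM scaling, genes kept by a minimum count of 10, a total of 15 and 70% of libraries, two-sided, Benjamini-Hochberg adjustment over all genes tested, threshold 0.05). Intervals are 95%. Results were recomputed with RLE factors, with other filters, with DESeq2 1.42.0, with limma 3.58.1 on log2(TPM + 1) and log2(TPM + 0.1) for genes of at least 1 TPM, with a replicate block, in a fit of all 12 libraries, and with each library left out. The fits without replicate 1 and the comparison of replicate 1 with the others were chosen after seeing the data. Scripts were tested on simulated data.

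Replicate numbers in the labels were checked over 12971 genes averaging at least 50 counts. Same-numbered libraries of siControl, siNELFA and siYAP deviated together (r from 0.638 to 0.885) and those of siNELFA+siYAP did not (r from -0.0533 to 0.0276), so the numbers pair the first 3 groups. All 10 members are named. Genes of other lists are named if past a nominal p of 0.05 against siControl, with the siRNA targets, INTS11 to INTS14 and pseudogenes of members, and the 5 genes most like the mean member profile. The members and lists were chosen with earlier results of these data known.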

Additional observations from a re-analysis of the deposited data

How the results depend on the processing

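The count of members past an adjusted p of 0.05 was 0 under every alternative run for the 5 comparisons and the interaction. By nominal p it was 1 in place of 0 for siNELFA+siYAP against siControl under the replicate block, where 2548 of 17533 genes passed. It was also 1 in both limma fits of TPM (INTS10, -0.43 and -0.44), where the median of all genes moved by -0.13 and -0.15. The count was 1 as well without replicate 1 in both groups, against 31.1% of genes, and 0 to 1 with a library left out. Against siYAP it was 1 without replicate 1 in both groups and 0 to 1 with a library left out, and against siNELFA 0 to 1. No share of genes past a nominal p is given for the TPM fits, the left-out fits or the siYAP fit without replicate 1. Their calls are not read as results about the members. The replicate block, paired for siNELFA and siYAP, gave 0 members past an adjusted p and changed no member's call there. It brought NELFA in siNELFA to an adjusted p of 0.000385 by edgeR and added nominal calls in the other lists.

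Directions near 0 turned. In siNELFA, INTS4 gave 0.014 with no filter, limma on log2(TPM + 1) gave -0.23, -0.17, -0.20, -0.017 and -0.055 for INTS1, INTS2, INTS3, INTS8 and INTS9, and on log2(TPM + 0.1) -0.24, -0.19, -0.20, -0.018 and -0.080. Without replicate 1, INTS1, INTS3 and INTS4 gave -0.15, -0.0033 and 0.029. In siYAP, INTS9 gave -0.0011 with DESeq2, -0.0026 with RLE and -0.0094 with the replicate block. INTS1, INTS3 and INTS9 gave -0.11, -0.083 and -0.040 on log2(TPM + 1) and -0.12, -0.086 and -0.048 on log2(TPM + 0.1). Without replicate 1, INTS1, INTS2, INTS3 and INTS6 gave -0.079, 0.00023, -0.060 and 0.059. In siNELFA+siYAP, INTS2 gave 0.0029 in the fit of all 12 libraries, 0.022 with the replicate block and 0.0060 summed. INTS1 and INTS4 gave -0.16 and -0.18 on log2(TPM + 1), and -0.17 and -0.19 on log2(TPM + 0.1). Without replicate 1, INTS1, INTS2, INTS7 and INTS8 gave -0.12, 0.21, -0.13 and 0.046. INTS1 gave 0.027 in the replicate 1 comparison without the siControl libraries. The cause was not tested.

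With 1 library left out, siNELFA gave -0.18 to 0.17 for INTS1, -0.14 to 0.24 for INTS2, -0.0011 to 0.14 for INTS3, -0.038 to 0.023 for INTS4, -0.022 to 0.56 for INTS5, -0.27 to 0.13 for INTS6, -0.40 to 0.15 for INTS7, -0.097 to 0.16 for INTS8 and -0.068 to 0.40 for INTS9. In siYAP it gave -0.029 to 0.32 for INTS1, -0.37 to 0.023 for INTS2, -0.058 to 0.086 for INTS3, -0.25 to 0.19 for INTS6, -0.12 to 0.41 for INTS7 and -0.24 to 0.24 for INTS9. In siNELFA+siYAP it gave -0.14 to 0.21 for INTS1, -0.16 to 0.22 for INTS2 and -0.13 to 0.32 for INTS7.

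Over all genes, adjusted calls were 1 in siNELFA against 17 with DESeq2 and 924 with the block, 1 in siYAP against 3 with the block, and 75 in siNELFA+siYAP against 935 with DESeq2, 381 with no filter, 116 at a minimum count of 50, 2 with the block and 4531 without siControl replicate 1. Against siYAP they were 6 and 504 with DESeq2, and against siNELFA 1 and 49.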
